A study of Sus scrofa with 2 samples.

Results

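Potassium channel genes were followed across the cell classes of the pig pancreas. The genes were chosen by symbol: every symbol that starts with KCNA, KCNB, KCNC, KCND, KCNH, KCNIP, KCNJ, KCNK, KCNMA, KCNMB, KCNN, KCNQ or KCNT, apart from KCNJ11 and KCNQ1, which were left out by the rule, and with at least 20 UMIs (unique molecular identifiers, each standing for 1 captured RNA molecule) over all barcodes of both matrices. Of 70 such symbols 59 met the minimum, out of 31908 genes in the matrices and 21757 genes with the same number of UMIs. Just inside the limit stood KCNMB1 and KCNH4 with 22 UMIs each, and just outside it KCNN4 with 17 and KCND1 with 13.

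Single-nucleus RNA-sequencing was done on a piece of pancreas from 1 wild-type Bama pig (WT) and from 1 transgenic Bama pig (PIGinH11) that carries knock-in copies of GIPRdn, hIAPP and PNPLA3I148M. The study's text places the 3 transgenes at the H11 locus under promoters specific to beta cells or to liver. Both pigs were 18 months old and both had received a high-fat and high-sugar diet for 12 months, so that the diet is shared by both libraries and has no control here. With 1 pig and 1 library in each group no difference between the groups could be tested, and every interval given below is a 95% interval that covers counting error only, not the difference between animals.

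Potassium channels let potassium ions leave or enter a cell along their gradient and so set the resting membrane potential and end electrical activity. In the islet, alpha, beta and delta cells are electrically excitable, and their potassium channels shape the firing that drives hormone release. In acinar and ductal cells, potassium channels keep the driving force for the secretion of fluid, chloride and bicarbonate, and in vessels they set the tone of muscle and endothelium.

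The 59 members came from 14 families. The channels with 2 pore domains gave 11 members, which carry background current. The inward rectifiers gave 11, and the EAG, ERG and ELK channels gave 7. The voltage-gated pore subunits gave 2 members of the Kv1 family, 2 of Kv2, 4 of Kv3, 2 of Kv4 and 4 of Kv7. The calcium-activated pore subunits gave the BK channel gene KCNMA1 and 3 SK channel genes, and the sodium-activated channels gave 2. The remaining members encode partners of the pore: 3 Kv1 beta subunits, 4 KChIP proteins that bind Kv4 channels and 3 BK beta subunits. In retained nuclei 45 of the 59 members had at least 100 UMIs.

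The files hold 13619 WT barcodes with 55784067 UMIs and 14964 PIGinH11 barcodes with 26228811 UMIs. After filters 11854 WT and 13126 PIGinH11 nuclei were retained, with a median of 3018.5 UMIs in WT nuclei and 1167 in PIGinH11 nuclei, and 46 retained barcode sequences occurred in both libraries. Nuclei were clustered without any KCN gene and the clusters were named from marker genes. The named classes held 8789 WT and 9205 PIGinH11 acinar-like, 2151 and 2189 ductal-like, 73 and 81 alpha-like, 131 and 133 beta-like, 31 and 67 delta-like, 248 and 394 endothelial-like, 162 and 184 stellate-like, 27 and 58 mural-like, 24 and 34 macrophage-like, 29 and 49 lymphocyte-like, and 44 and 42 Schwann-like nuclei. These 11 classes were ranked. Gamma-like nuclei, with 7 in WT and 47 in PIGinH11, were not. A further 38 WT and 205 PIGinH11 nuclei of the endocrine clusters were left unnamed and belong to no class. The markers of exocrine and endocrine pancreas were present, as the tissue label says, and all markers of each class had UMIs in that class in both libraries except MAFA, which was at 0 in WT beta-like nuclei. RNA of digestive enzymes and other acinar markers was present in every class: it summed to 39256 CPM (UMIs per 1000000 UMIs of the class) in WT and 33935 CPM in PIGinH11 acinar-like nuclei, and to between 5128 and 10797 CPM in the other named classes of WT and between 2205 and 5216 CPM in those of PIGinH11.

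As a sum, potassium channel transcripts were most abundant in islet classes, where KCNB2 and KCNMA1 gave much of the sum. KCNB2 alone gave 10082 CPM in WT and 10976 CPM in PIGinH11 alpha-like nuclei. In beta-like nuclei KCNB2 gave 2779 and 3033 CPM and KCNMA1 2755 and 4443 CPM. In delta-like nuclei KCNB2 gave 3070 and 2692 CPM and KCNMA1 1409 and 1220 CPM. All 59 members summed to 15836 CPM in WT and 16491 CPM in PIGinH11 alpha-like nuclei, 7146 and 9015 CPM in beta-like nuclei and 7880 and 7714 CPM in delta-like nuclei. Acinar-like nuclei had 4898 CPM in WT and 4339 CPM in PIGinH11, but only 455 and 516 CPM once KCNMA1 was left out. Ductal-like nuclei had 1345 and 1490.0 CPM, and endothelial-like nuclei had 2040.1 and 1972 CPM. Lymphocyte-like nuclei had 2926 and 3199 CPM, and mural-like nuclei had 2193 and 3695 CPM.

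Each member was then assigned to the ranked class in which its CPM was highest. The class was the same in both libraries for 33 of 59 members, or 55.9%, against 34.5% of all genes with at least 20 UMIs. In 15 of 59 members the highest class was at least 2-fold above the next class in both libraries, against 10.3% of all such genes. Among members with at least 100 UMIs in retained nuclei these were 12 of 45, against a background of 9.81%: KCNAB1, KCNAB2, KCNB2, KCNC1, KCNIP4, KCNJ16, KCNJ3, KCNJ8, KCNK13, KCNMB4, KCNQ5 and KCNT2. The heat map of levels by class shows both libraries side by side.

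**Figure D1:**
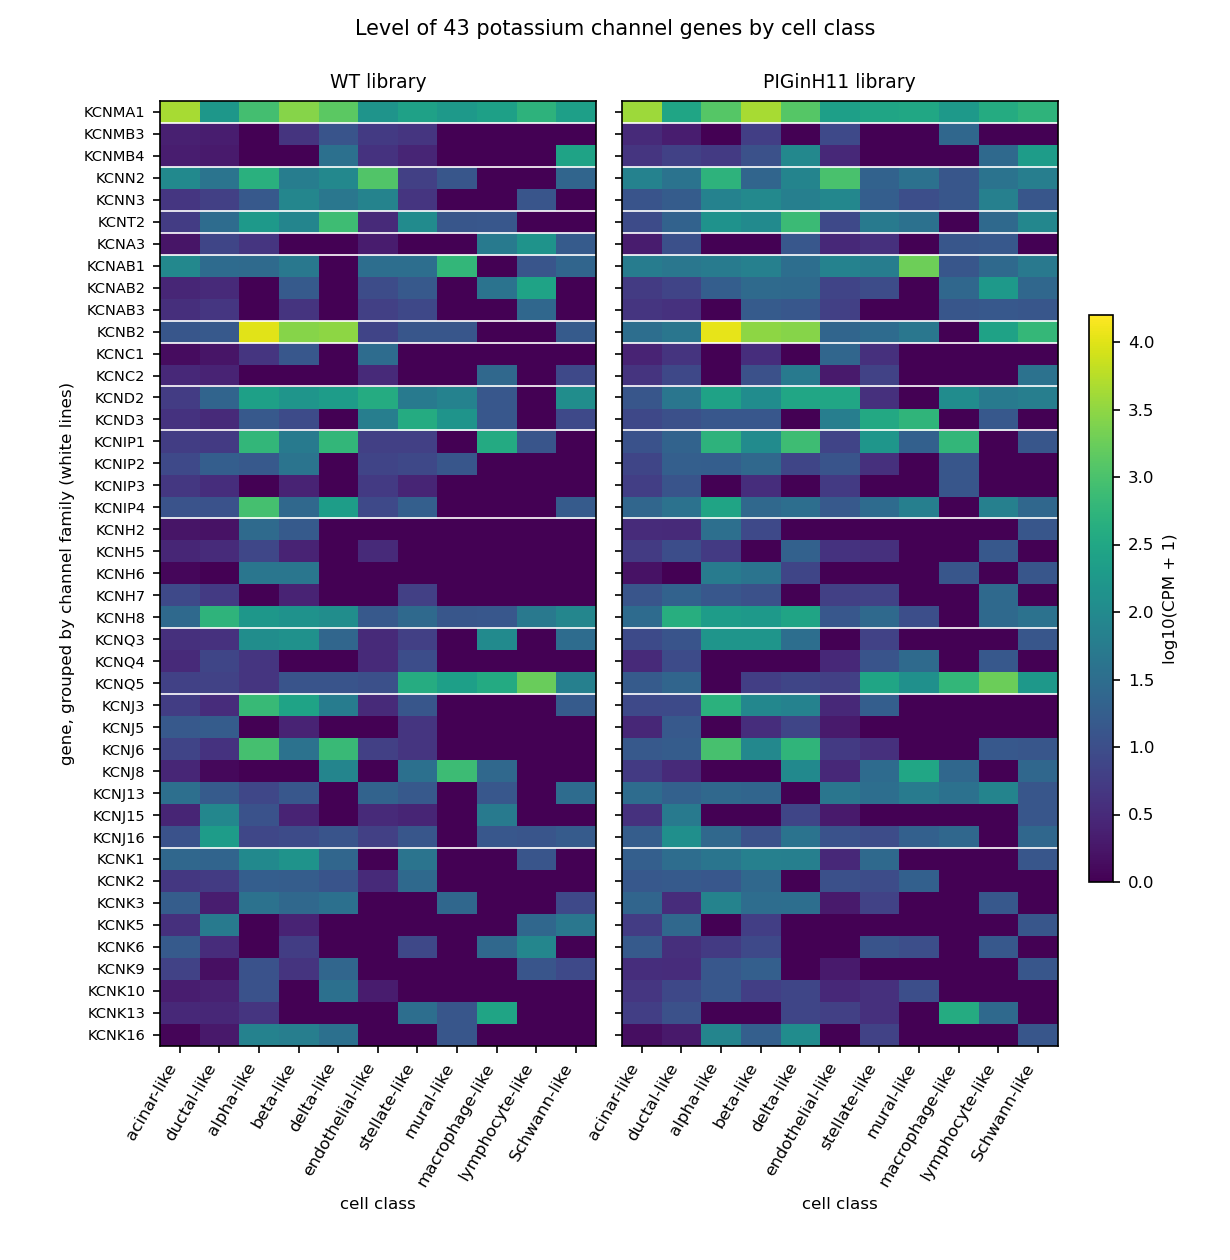
Levels of 43 of the 45 potassium channel genes with at least 100 UMIs in retained nuclei, as log10(CPM + 1), in the 11 ranked cell classes, with 1 panel for the WT library and 1 for the PIGinH11 library. KCNB2 is highest in alpha-like nuclei in both panels (10082 and 10976 CPM), and KCNMA1 is high in acinar-like (4443 and 3823 CPM) and beta-like nuclei (2755 and 4443 CPM).

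An endocrine class was the highest class in both libraries for 24 of 59 members (background 13.3% of genes). By single class, alpha-like nuclei were highest for 9 members (background 2.48%), beta-like for 4 (2.68%), delta-like for 4 (1.95%) and ductal-like for 5 (3.49%). Endothelial-like nuclei were highest for 3 members (3.61%), mural-like for 3 (2.51%), lymphocyte-like for 3 (4.81%), macrophage-like for 1 (3.83%) and Schwann-like for 1 (2.37%). No member had acinar-like nuclei (background 4.44%) or stellate-like nuclei (2.35%) as its highest class in both libraries. A non-epithelial class was highest in both libraries for 15 of 59 members, below the 42.4% of all genes.

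KCNMA1, at chr14:79345382-80106337 of Sscrofa11.1, encodes the pore of the BK channel, which opens on voltage and calcium. It gave 210718 UMIs in retained nuclei. The WT acinar-like class held 140092 of them and the PIGinH11 acinar-like class 59890. Its level in acinar-like nuclei was 4443 CPM (interval 4420.2 to 4467) in WT and 3823 CPM (3792 to 3853) in PIGinH11. In beta-like nuclei it was 2755 CPM (2626 to 2889) in WT and 4443 CPM (4239 to 4655) in PIGinH11, so that the highest class was acinar-like in WT and beta-like in PIGinH11. In alpha-like nuclei it stood at 879 and 1244 CPM, in delta-like nuclei at 1409 and 1219.7 CPM, and in ductal-like nuclei at 168 and 298 CPM.

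The share of nuclei with a KCNMA1 UMI was 94.8% of WT and 90.6% of PIGinH11 acinar-like nuclei, at a median depth of 2879 and 1192 UMIs per nucleus. In ductal-like nuclei, with medians of 3404 and 1026 UMIs, it was 34.7% and 28.3%. Because depth differed, each nucleus with enough UMIs was also thinned to 500 UMIs. The thinned shares were 79.4% and 76.5% of acinar-like nuclei, 72.5% and 82.0% of beta-like nuclei and 8.97% and 15.4% of ductal-like nuclei, so KCNMA1 set the acinar and beta-like classes apart from ductal-like nuclei at equal depth.

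KCNMA1 also varied within the acinar-like class. In acinar-like cluster 9, led by the digestive enzyme genes CELA2A, PRSS2 and CPA1, it stood at 168 CPM over 350 WT nuclei and at 1849 CPM over 149 PIGinH11 nuclei. In the other acinar-like clusters it stood between 2990.4 and 5042 CPM in WT and between 2784 and 4407 CPM in PIGinH11. Cluster 9 was named from only 4 acinar markers, BHLHA15, CPA1, CPB1 and PNLIP, and the other acinar-like clusters from 9 to 11. The acinar name of cluster 9 thus rests on fewer markers. Of the BK beta subunits, KCNMB4 stood at 1.21 CPM in WT and 3.38 CPM in PIGinH11 acinar-like nuclei, and was highest in Schwann-like nuclei at 269 and 209 CPM. KCNMB3 stood at 1.36 and 2.17 CPM in acinar-like nuclei, and LRRC26, a BK gamma subunit that is not a member, at 26.6 and 9.77 CPM. KCNMB4 had a UMI in 52.3% of WT and 26.2% of PIGinH11 Schwann-like nuclei, and against an acinar-like share of 0.398% and 0.565%.

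**Figure D2:**
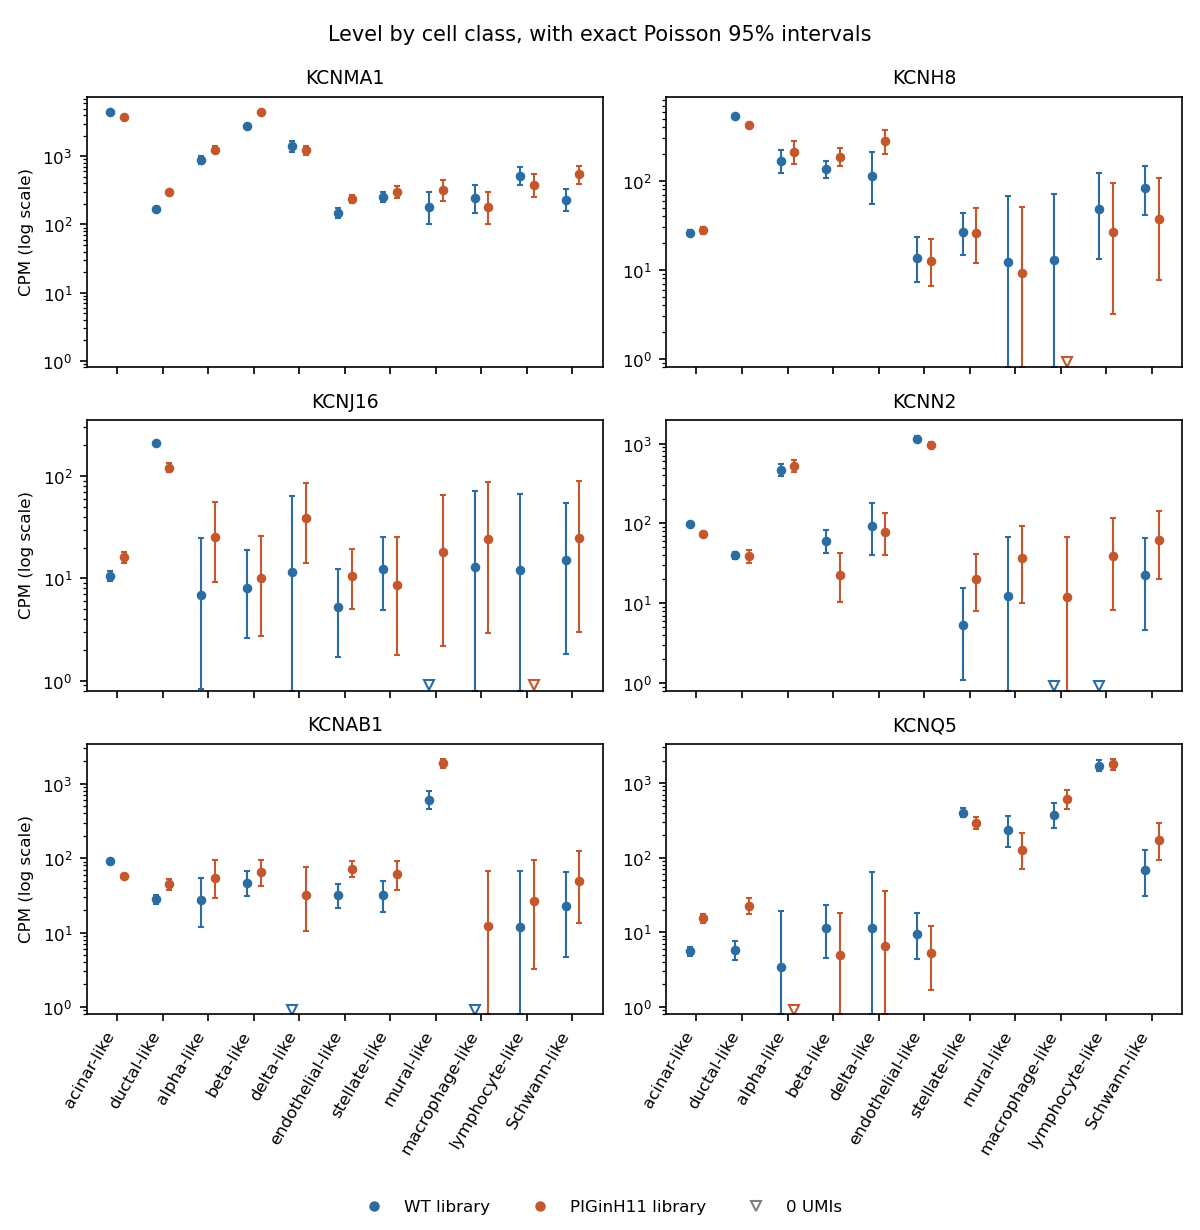
CPM on a log axis with exact Poisson 95% intervals for KCNMA1, KCNH8, KCNJ16, KCNN2, KCNAB1 and KCNQ5 in the 11 ranked cell classes, for the WT and the PIGinH11 library; each point is 1 class of 1 library. KCNH8 and KCNJ16 peak in ductal-like, KCNN2 in endothelial-like, KCNAB1 in mural-like and KCNQ5 in lymphocyte-like nuclei of both libraries.

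In islet classes the largest total belonged to KCNB2, which encodes a voltage-gated Kv2 channel of the delayed rectifier type and lies at chr4:62877838-63306314. KCNB2 stood at 10082 CPM (interval 9722 to 10452) in WT and 10976 CPM (10558 to 11406) in PIGinH11 alpha-like nuclei. In beta-like nuclei it stood at 2779 and 3033 CPM and in delta-like nuclei at 3069.7 and 2692 CPM, so the alpha-like level was 3.63-fold the beta-like level in WT and 3.62-fold in PIGinH11. A KCNB2 UMI was found in 100% of WT and 98.8% of PIGinH11 alpha-like nuclei and, thinned to 500 UMIs, in 94.5% and 95.1%. In acinar-like nuclei the share was 4.29% and 5.04%, and 0.910% and 2.79% when thinned. The gamma-like nuclei, which were not ranked, held 7015 and 9839 CPM.

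**Figure D3:**
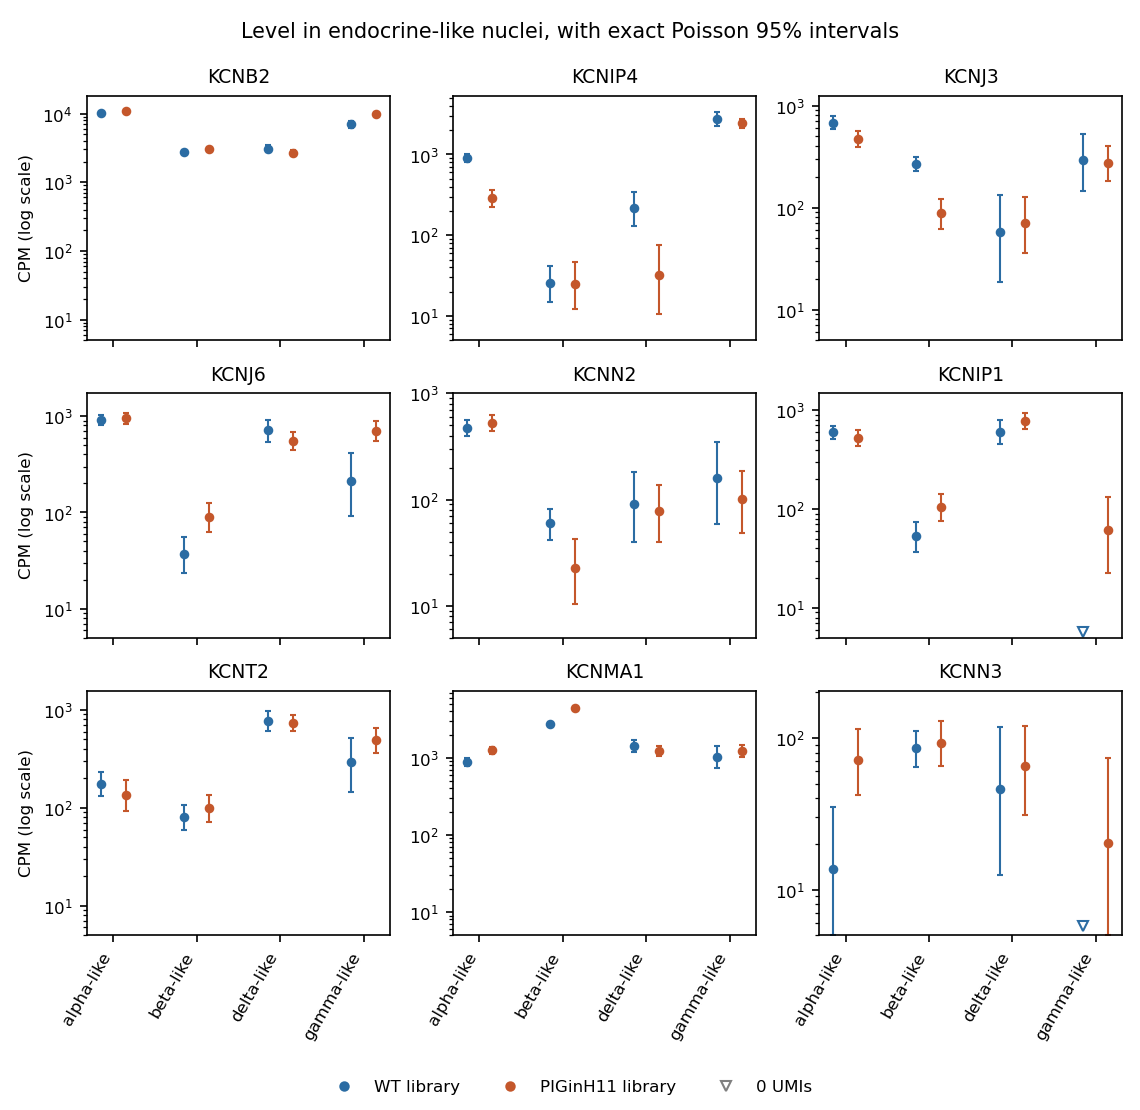
CPM with exact Poisson 95% intervals of KCNB2, KCNIP4, KCNJ3, KCNJ6, KCNN2, KCNIP1, KCNT2, KCNMA1 and KCNN3 in alpha-, beta-, delta- and gamma-like nuclei, for the WT and the PIGinH11 library; open triangles mark a class with 0 UMIs. KCNB2, KCNIP4, KCNJ3, KCNJ6 and KCNN2 are higher in alpha-like than in beta-like nuclei of both libraries, and KCNMA1 is lower (879 against 2755 CPM in WT, 1244 against 4443 CPM in PIGinH11).

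G protein-gated inward rectifiers open when inhibitory receptors are engaged. Of their genes, KCNJ3 and KCNJ6 had alpha-like nuclei as their highest class in both libraries, while KCNJ5 had ductal-like nuclei. KCNJ3 stood at 682 CPM in WT and 472 CPM in PIGinH11 alpha-like nuclei, against 269 and 88.0 CPM in beta-like and 57.3 and 71.4 CPM in delta-like nuclei. KCNJ6 stood at 913 and 953 CPM in alpha-like, 710.1 and 551 CPM in delta-like and 37.0 and 90.5 CPM in beta-like nuclei. Alpha-like over beta-like, KCNJ6 was 24.7-fold higher in WT and 10.5-fold higher in PIGinH11, and KCNJ3 was 2.54-fold and 5.37-fold higher. The alpha and delta levels of KCNJ6 lay close in WT, where the log2 interval of their ratio ran from -0.04 to 0.79. KCNJ9, another gene of this group, had 71 UMIs in all retained nuclei, too few for an order between classes. Its highest class was also alpha-like nuclei, with 3.41 and 4.22 CPM. The next classes were close, with 3.22 CPM in WT beta-like and 3.02 CPM in PIGinH11 ductal-like nuclei.

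KChIP proteins are calcium-binding partners of the Kv4 channels. KCNIP4, at chr8:15211916-16346358, stood at 903 CPM in WT and 287 CPM in PIGinH11 alpha-like nuclei and at 25.7 and 25.1 CPM in beta-like nuclei. In the few gamma-like nuclei it stood at 2764 CPM in WT and 2434 CPM in PIGinH11. KCNIP1 had a wider pattern, with 607 and 779 CPM in delta-like, 596 and 527 CPM in alpha-like, 53.1 and 106 CPM in beta-like and 371 and 606 CPM in macrophage-like nuclei. KCNIP1 spans chr16:53272652-53694974 and holds KCNMB1 at chr16:53616532-53631197 inside it, and reads of the shared stretch cannot be told apart here. The Kv4 gene KCND2 itself stood at 239 and 266 CPM in alpha-like, 151 and 111 CPM in beta-like and 206 and 305 CPM in delta-like nuclei. No islet class stood apart from both others in both libraries. Alpha-like nuclei were above beta-like nuclei in WT (log2 0.66, interval 0.19 to 1.12) and in PIGinH11 (log2 1.26, interval 0.69 to 1.85).

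Of the sodium-activated channels, KCNT2 was highest in delta-like nuclei, at 779 CPM in WT and 739.6 CPM in PIGinH11, with 177 and 135 CPM in alpha-like and 80.4 and 101 CPM in beta-like nuclei. A KCNT2 UMI was found in 77.4% and 59.7% of delta-like nuclei at median depths of 2526 and 1481 UMIs, whereas the acinar-like shares of KCNT2 were 1.46% in WT and 1.30% in PIGinH11. SK channels open on calcium alone and follow the spikes of excitable cells. KCNN2 stood at 470.4 and 527 CPM in alpha-like and 59.5 and 22.6 CPM in beta-like nuclei, whereas KCNN3 stood at 85.2 and 93.0 CPM in beta-like and 13.6 and 71.7 CPM in alpha-like nuclei. The KCNN3 order between alpha-like and beta-like nuclei held in WT (log2 -2.64, interval -4.57 to -1.20) and was within the counting error in PIGinH11 (log2 -0.38, interval -1.30 to 0.49).

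Sparse members also had endocrine classes as their highest. KCNA4, a Kv1 gene, stood at 27.3 and 40.2 CPM in beta-like and 0.127 and 0.192 CPM in acinar-like nuclei. KCNH6, an ERG channel gene, stood at 44.3 and 54.8 CPM in alpha-like, 43.4 and 40.2 CPM in beta-like and 0.190 and 0.575 CPM in acinar-like nuclei. KCNQ3, which carries the slow M-type current of neurons, stood at 112 and 156 CPM in alpha-like and 130.3 and 153 CPM in beta-like nuclei, so alpha and beta did not separate. KCNK16, a 2-pore-domain channel known from islets, stood at 71.6 and 80.1 CPM in alpha-like, 61.1 and 17.6 CPM in beta-like and 34.4 and 110.3 CPM in delta-like nuclei. KCNK16 gave between 3 and 38 UMIs per class and library among these, and its order changed between libraries.

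In ductal-like nuclei 5 members were highest: KCNH8, KCNJ16, KCNJ15, KCNK5 and KCNJ5. The rank of KCNJ5 was within the counting error in WT, with 15.4 CPM in ductal-like and 14.1 CPM in acinar-like nuclei (log2 0.12, interval -0.17 to 0.41). KCNH8, a voltage-gated ELK channel gene at chr13:6104382-6533505, stood at 534 CPM in WT and 428 CPM in PIGinH11. Its next classes were alpha-like nuclei in WT with 167 CPM and delta-like nuclei in PIGinH11 with 279 CPM. A KCNH8 UMI was found in 57.9% and 32.8% of ductal-like nuclei and, thinned, in 20.7% and 17.7%. Without thinning, the acinar-like shares of KCNH8 were 6.57% in WT and 4.10% in PIGinH11.

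The inward rectifier KCNJ16, which joins with other inward rectifier subunits in transporting epithelia, stood at 209 CPM in WT and 121 CPM in PIGinH11 ductal-like nuclei, against 10.5 and 16.0 CPM in acinar-like nuclei. It was 14.0-fold above the next class in WT and 3.1-fold in PIGinH11. KCNJ15, an inward rectifier of epithelia, stood at 88.3 and 52.3 CPM in ductal-like and 1.68 and 2.94 CPM in acinar-like nuclei. KCNK5, a 2-pore-domain channel that alkaline pH opens, stood at 52.4 and 25.4 CPM in ductal-like and 2.85 and 4.60 CPM in acinar-like nuclei. The next class of KCNK5 was Schwann-like nuclei, with 44.9 CPM in WT and 12.3 CPM in PIGinH11. KCNJ16, at chr12:10393172-10538423, lies 12541 bp from its neighbour KCNJ2 at chr12:10351959-10380631. KCNJ2 had another highest class in both libraries, endothelial-like nuclei with 5.27 and 10.5 CPM. With 37 KCNJ2 UMIs in all retained nuclei, there were too few for an order between classes.

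Ductal-like clusters differed among themselves. KCNMA1 stood at 107 CPM in WT and 201 CPM in PIGinH11 in cluster 5, whereas cluster 7 gave 364 and 478 CPM, and cluster 15 gave 685 and 1214 CPM. KCNH8 ran the other way in WT, with 569 CPM in cluster 5, 411 CPM in cluster 7 and 254 CPM in cluster 15, while in PIGinH11 its values of 441, 381 and 414 CPM lay close together.

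**Figure D4:**
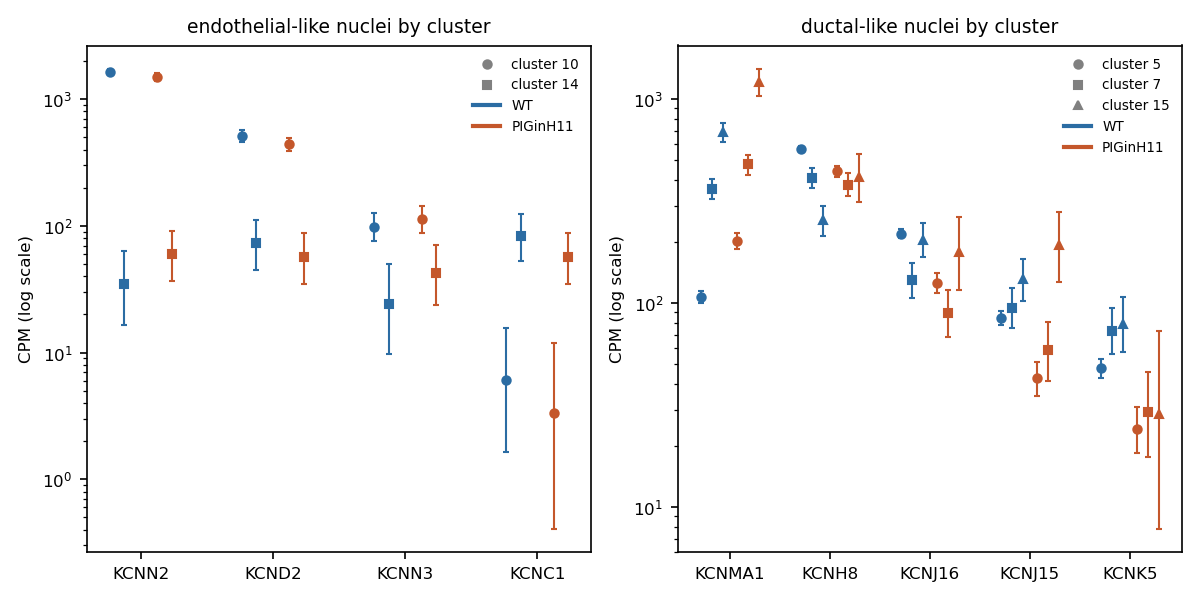
CPM with exact Poisson 95% intervals of KCNN2, KCND2, KCNN3 and KCNC1 in endothelial-like clusters 10 and 14, and of KCNMA1, KCNH8, KCNJ16, KCNJ15 and KCNK5 in ductal-like clusters 5, 7 and 15, for the WT and PIGinH11 libraries. KCNN2 is higher in cluster 10 (1645 and 1500.4 CPM) than in cluster 14 (34.6 and 59.8 CPM), and KCNC1 shows the opposite order in both libraries.

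Endothelial-like nuclei had the highest level of KCNN2, an SK channel gene at chr2:118439328-118882299, with 1155 CPM (1097 UMIs) in WT and 970.1 CPM (925 UMIs) in PIGinH11. The share of these nuclei with a KCNN2 UMI was 57.3% and 45.4%, against 1.85% and 3.80% of stellate-like nuclei, at median depths of 3734 and 1794 UMIs for endothelial-like and 3143.5 and 1316.5 UMIs for stellate-like nuclei. KCNN2 split the class by cluster. Cluster 10 gave 1645 CPM in WT and 1500.4 CPM in PIGinH11. Cluster 14, which SLCO2A1 and TLL1 lead, gave 34.6 and 59.8 CPM. KCND2 had the same order: in cluster 10 it reached 515 CPM in WT and 441 CPM in PIGinH11, and in cluster 14 only 72.8 and 57.0 CPM. KCNC1, a Kv3 gene of fast-firing cells, had the opposite order: cluster 10 gave 6.05 CPM in WT and 3.32 CPM in PIGinH11, whereas cluster 14 gave 83.1 and 57.0 CPM.

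Among mural-like nuclei, the smooth muscle and pericyte-like cells of vessels, 3 members were highest: KCNAB1, KCNJ8 and KCNK17. KCNK17 had 80 UMIs in all retained nuclei, too few for an order between classes. Its mural-like levels of 48.7 CPM in WT and 36.4 CPM in PIGinH11 lay close to 44.3 and 33.7 CPM in alpha-like nuclei. KCNAB1 encodes a cytoplasmic beta subunit of Kv1 channels. It stood at 609 CPM (interval 452 to 803) in WT and 1902 CPM (1653 to 2178) in PIGinH11, from 50 and 209 UMIs in 10 of 27 and 30 of 58 nuclei. It was 6.72-fold above the next class in WT and 26.7-fold in PIGinH11. KCNJ8, the pore of the ATP-sensitive channel of vessels, stood at 743 and 300.4 CPM, from 61 and 33 UMIs in 15 and 20 nuclei. Beside these, stellate-like nuclei held KCND3, a Kv4 gene, at 378 CPM in WT and 342 CPM in PIGinH11. The mural-like KCND3 values were 146 CPM in WT and 564 CPM in PIGinH11, where 32 of 62 UMIs lay in 1 nucleus.

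In immune classes KCNQ5, a Kv7 gene of the M-type current, was highest in lymphocyte-like nuclei with 1715 CPM in WT and 1791 CPM in PIGinH11. A KCNQ5 UMI was found in 18 of 29 and 29 of 49 lymphocyte-like nuclei, or 62.1% and 59.2%, against 1.93% and 2.47% of acinar-like nuclei. KCNQ5 was also found in stellate-like nuclei at 401 and 293 CPM and in macrophage-like nuclei at 371 and 606 CPM. KCNAB2, another Kv1 beta subunit, stood at 276 and 184 CPM in lymphocyte-like nuclei. KCNA3, the Kv1 channel of T lymphocytes, stood at 144 CPM (12 UMIs) in WT and 13.2 CPM (1 UMI) in PIGinH11 lymphocyte-like nuclei, too few for an order between classes in PIGinH11. KCNK13, a 2-pore-domain channel known from microglia and macrophages, was highest in macrophage-like nuclei at 281 and 388 CPM, from 22 and 32 UMIs in 10 of 24 and 13 of 34 nuclei. In such small classes a few UMIs decide a rank: 3 UMIs of KCNK13 equal 38.3 CPM in WT macrophage-like nuclei and 0.0952 CPM in WT acinar-like nuclei.

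Other genes tied to potassium and related channels, listed together with the members, gave 26 symbols that are not members, of which 24 were in the matrices and 17 had at least 20 UMIs. Of these 17, 9 had the same highest class in both libraries (background 34.5% of genes). At least 2-fold above the next class in both were 4 (10.3%). KCNE3, a beta subunit that joins Kv7 channels of secretory epithelia, stood at 408 CPM in WT and 551 CPM in PIGinH11 ductal-like nuclei. KCNG3, a silent subunit that joins Kv2 channels, stood at 187 and 158 CPM in beta-like nuclei. DPP6, a partner of Kv4 channels, stood at 344 and 628 CPM in alpha-like nuclei. HCN4, a hyperpolarization-activated cation channel, stood at 34.4 and 25.95 CPM in delta-like nuclei, but had only 55 UMIs over all barcodes.

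The second comparison set the PIGinH11 library against the WT library within each class. Members and all other genes were compared where both libraries together had at least 20 UMIs in the class, as the log2 ratio of PIGinH11 CPM over WT CPM, and a gene was called when the ratio was at least 2-fold in either direction, which is a size and not a test. KCNJ5 in acinar-like nuclei, KCNJ3 in beta-like nuclei and KCNIP4 in alpha-like nuclei had the lower values in PIGinH11, and KCNAB1 in mural-like nuclei had the higher value. In acinar-like nuclei 21 of 48 members were called higher in PIGinH11 (background 23.4% of genes) and 2 lower (2.88%), and in ductal-like nuclei 19 of 36 were called higher (17.3%) and 1 lower (3.66%). The splits were also counted relative to a class median ratio, taken from genes for which WT and PIGinH11 both reached 20 UMIs. This median was log2 0.27 over 15784 genes in acinar-like and 0.15 over 11153 genes in ductal-like nuclei. On that scale the acinar-like split was 14 higher and 2 lower, and the ductal-like split stayed at 19 and 1. Shares over all genes were not counted on that scale, so these 2 splits have no background. The members' median log2 ratio was 0.80 in acinar-like nuclei against 0.33 over all genes compared there, and 1.55 in ductal-like nuclei against 0.18. Calls in either direction numbered 23 of 48 in acinar-like nuclei (background 26.3%) and 20 of 36 in ductal-like nuclei (21.0%). With the UMI limit per nucleus that the methods print, 1300, they dropped to 13 of 42 and 11 of 24. Shares over all genes were not counted under that limit.

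The members called higher in acinar-like and ductal-like nuclei were low there. In acinar-like nuclei of PIGinH11 they ran from KCNT1 at 0.766 CPM to KCNB2 at 32.0 CPM, and in ductal-like nuclei from KCNK12 at 5.14 CPM to KCNB2 at 43.2 CPM. KCNB2 stood at 12.5 CPM in WT acinar-like and 13.6 CPM in WT ductal-like nuclei. The summed markers of endocrine cells moved with these values: they were 188 CPM in WT and 272 CPM in PIGinH11 acinar-like nuclei and 686 and 1402 CPM in ductal-like nuclei, of which the single gene CACNB2 gave 482 and 1046 CPM. Their part in the members' ratios was not tested. The median depth of the retained nuclei, 3018.5 against 1167 UMIs, also moved with the libraries, as did the summed acinar markers, and neither can be told apart from genotype or animal here.

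KCNJ5, a G protein-gated inward rectifier gene at chr9:55836777-55861288, stood at 14.1 CPM in WT and 1.91 CPM in PIGinH11 acinar-like nuclei. It had UMIs in 369 of 8789 WT and 25 of 9205 PIGinH11 nuclei. That is 7.37-fold lower in PIGinH11 (log2 -2.88, interval -3.47 to -2.35). Thinned to 500 UMIs, 0.637% of WT and 0.0978% of PIGinH11 acinar-like nuclei held a KCNJ5 UMI. In ductal-like nuclei KCNJ5 stood at 15.4 and 13.9 CPM, so the same gap was not seen there. KCNK9, an acid-sensitive 2-pore-domain channel, was the other member called lower in acinar-like nuclei, with 5.71 and 2.49 CPM (log2 -1.20, interval -1.74 to -0.69). This KCNK9 ratio depended on the processing, with log2 values from -1.47 to -0.019 over the alternatives.

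KCNMA1 in acinar-like nuclei had a log2 ratio of -0.22 (interval -0.23 to -0.20), below 2-fold. In beta-like nuclei it was 1.61-fold higher in PIGinH11 (log2 0.69, interval 0.59 to 0.79), and in ductal-like nuclei the log2 ratio was 0.82. The summed acinar markers of beta-like nuclei were 6728 CPM in WT and 2359.9 CPM in PIGinH11, and their part in the KCNMA1 values was not tested. In Schwann-like nuclei KCNMA1 stood at 232 CPM from 31 UMIs in WT and 540.4 CPM from 44 UMIs in PIGinH11 (log2 1.22, interval 0.53 to 1.93).

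Of the 5 members highest in ductal-like nuclei, KCNK5 was called lower in PIGinH11 there and the other 4 were not past 2-fold. KCNK5 was measured with 450 UMIs and 52.4 CPM in WT and 84 UMIs and 25.4 CPM in PIGinH11 (log2 -1.05, interval -1.40 to -0.71), in 349 of 2151 and 74 of 2189 nuclei. KCNJ16 had a log2 ratio of -0.79 (interval -0.95 to -0.63) and KCNJ15 one of -0.76, both short of 2-fold. KCNH8 went from 534 to 428 CPM, and KCNJ5 lay close at 15.4 and 13.9 CPM. Thinned to 500 UMIs, KCNJ16 was found in 7.81% of WT and 5.34% of PIGinH11 ductal-like nuclei. The summed acinar markers in ductal-like nuclei were 7874 CPM in WT and 4694 CPM in PIGinH11, and their part in these values was not tested.

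In alpha-like nuclei 3 of 19 members were called higher (background 6.41%) and 2 lower (6.96%), and in beta-like nuclei 2 of 23 were higher (6.8%) and 4 lower (5.99%). Relative to the class median ratio, log2 0.06 over 2275 genes chosen by the same limit as above, the alpha-like split was 1 higher and 2 lower. It has no background on that scale either. KCNB2, the most abundant member of the alpha-like nuclei, was close between libraries there (log2 0.12, interval 0.05 to 0.20).

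KCNJ3 in beta-like nuclei stood at 269 CPM (interval 229 to 313) in WT and 88.0 CPM (61.3 to 122) in PIGinH11. It had UMIs in 65 of 131 WT and 18 of 133 PIGinH11 beta-like nuclei, at median depths of 4216 and 2247 UMIs. The level was 3.05-fold lower in PIGinH11 (log2 -1.61, interval -2.18 to -1.08). Thinned to 500 UMIs, the share of beta-like nuclei with a KCNJ3 UMI was 12.2% (7.14 to 19.1) in WT and 6.01% (2.63 to 11.5) in PIGinH11, with intervals that overlap. The other G protein-gated gene, KCNJ6, had the opposite direction in beta-like nuclei, with 37.0 CPM in WT and 90.5 CPM in PIGinH11 (log2 1.29, interval 0.50 to 2.11).

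The other members called lower in beta-like nuclei were KCNK16, KCNK1 and KCNN2. KCNK16 stood at 61.1 CPM from 38 UMIs in WT and at 17.6 CPM from 7 UMIs in PIGinH11 (log2 -1.80, interval -3.20 to -0.62). KCNK1, a weakly inward rectifying 2-pore-domain channel, stood at 143 CPM in WT and 65.3 CPM in PIGinH11 beta-like nuclei (log2 -1.13) and at 98.8 and 42.2 CPM in alpha-like nuclei (log2 -1.23). KCNN2 stood at 59.5 and 22.6 CPM in beta-like nuclei (log2 -1.40, interval -2.63 to -0.32), from 37 and 9 UMIs.

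KCNIP4 in alpha-like nuclei was 3.15-fold lower in PIGinH11 (log2 -1.66, interval -2.06 to -1.27), with UMIs in 34 of 73 WT and 17 of 81 PIGinH11 nuclei. Single nuclei held up to 49 of the 265 WT UMIs and up to 19 of the 68 PIGinH11 UMIs. In delta-like nuclei KCNIP4 stood at 218 and 32.4 CPM, but 16 of its 19 WT UMIs lay in 1 nucleus. KCNN3 in alpha-like nuclei stood at 13.6 CPM from 4 UMIs in WT and 71.7 CPM from 17 UMIs in PIGinH11, of which 8 lay in 1 nucleus.

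**Figure D5:**
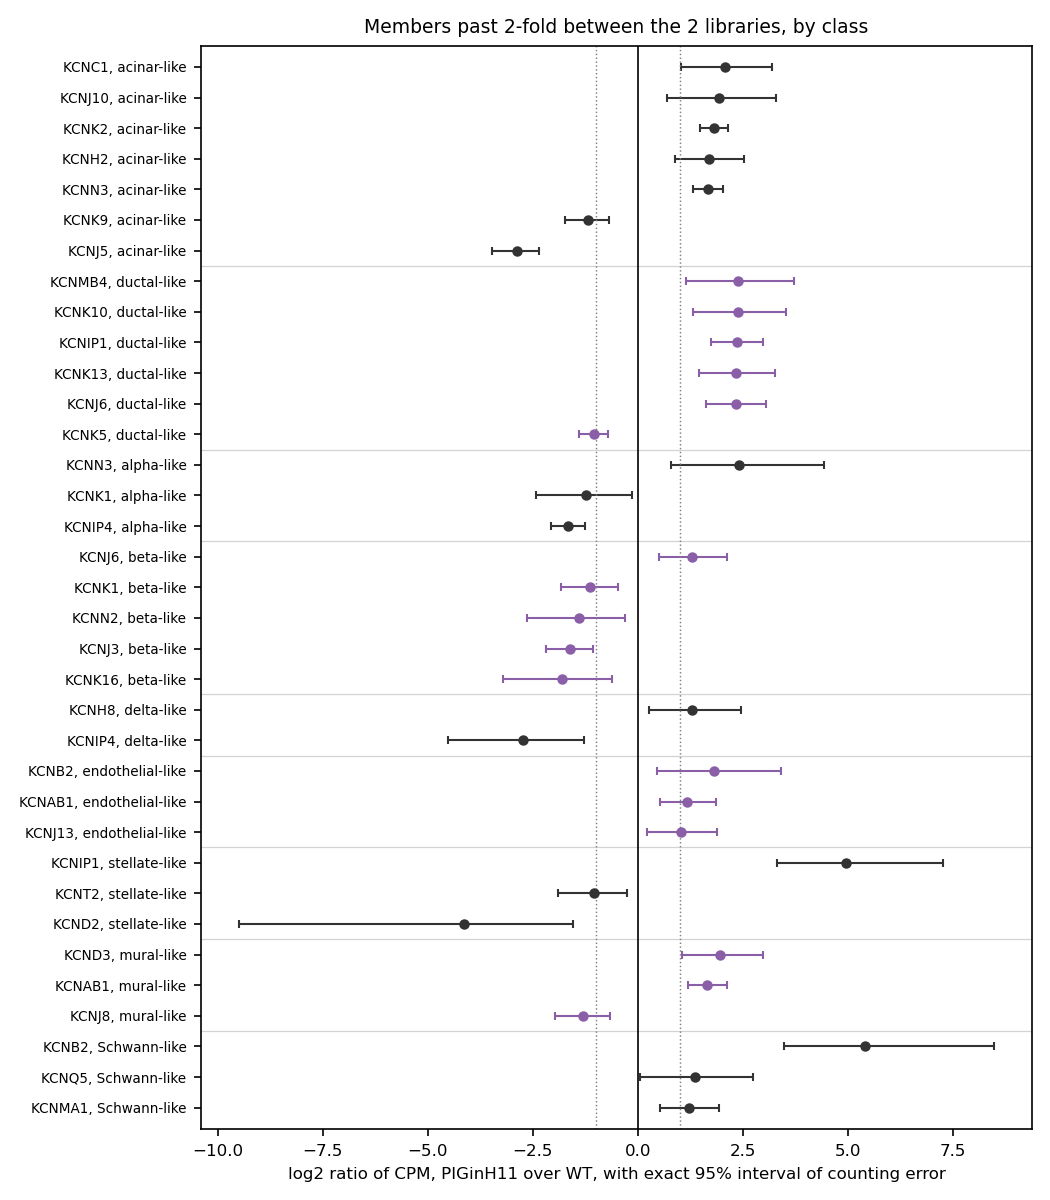
Log2 ratio of PIGinH11 CPM over WT CPM with 95% counting intervals for 35 selected pairs of a potassium channel gene and a ranked class. Each pair differed at least 2-fold with an interval apart from equality. At most 5 pairs in each direction in each class were taken, and members not reported here were left out. Other pairs past 2-fold are therefore not drawn, and the balance of directions is not that of all calls. Each point is 1 gene in 1 class, and 0 means equal levels. KCNJ5 in acinar-like nuclei lies at -2.88, KCNJ3 in beta-like nuclei at -1.61 and KCNAB1 in mural-like nuclei at 1.64.

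Delta-like nuclei had 2 of 12 members called higher (background 11.9%) and 1 lower (6.76%). Endothelial-like nuclei had 3 of 12 called higher (6.26%) and 1 lower (5.08%), and stellate-like nuclei had 1 of 12 called higher (7.19%) and 2 lower (5.89%). In endothelial-like nuclei KCNAB1 stood at 31.6 CPM in WT and 71.3 CPM in PIGinH11 (log2 1.17). KCNN2, which had endothelial-like nuclei as its highest class in both libraries, was not called there.

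In mural-like nuclei KCNAB1 was 3.12-fold higher in PIGinH11 (log2 1.64, interval 1.19 to 2.12). In WT 1 nucleus held 26 of the 50 UMIs, and in PIGinH11 no nucleus held more than 33 of the 209. KCNJ8 went the other way in the same nuclei, from 743 CPM in WT to 300.4 CPM in PIGinH11 (log2 -1.31, interval -1.96 to -0.67), with up to 21 WT UMIs and 4 PIGinH11 UMIs in 1 nucleus. After thinning to 500 UMIs the KCNJ8 ratio had the opposite sign, a log2 value of 0.31.

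The smallest classes had few members to compare. Of the Schwann clusters, 3 WT and 95 PIGinH11 nuclei were left unnamed, and the effect on the ratios was not tested. Mural-like nuclei had 2 of 5 members called higher (background 13.5%) and 1 lower (11.9%), and Schwann-like nuclei 3 of 5 higher (9.51%) and 0 lower (11.4%). Lymphocyte-like nuclei had 1 of 4 called higher (7.61%), which was KCNB2 with 0 UMIs in WT and 20 in PIGinH11, of which 18 lay in 1 nucleus, and 0 lower (8.58%). Macrophage-like nuclei had 0 of 4 higher (11.8%) and 0 lower (9.9%).

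In several of the largest ratios 1 nucleus held most of the UMIs. KCNB2 in Schwann-like nuclei stood at 15.0 CPM in WT and 626 CPM in PIGinH11, where 34 of 51 UMIs lay in 1 nucleus, and Schwann-like nuclei also held 8016 and 9617 CPM of summed endocrine markers. KCNIP1 in stellate-like nuclei stood at 5.25 and 161 CPM, with 51 of 56 PIGinH11 UMIs in 1 nucleus. KCND2 in stellate-like nuclei stood at 50.8 and 2.87 CPM, with 17 of 29 WT UMIs in 1 nucleus. KCNT2 in stellate-like nuclei, by contrast, stood at 107 CPM in WT and 51.7 CPM in PIGinH11 (log2 -1.05, interval -1.89 to -0.27), with at most 6 UMIs in any nucleus.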

How the data were processed

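Nuclei from 1 piece of pancreas per pig were sequenced with the 10x 3' kit. Per the submitters' processing notes, the reads were aligned to Sscrofa11.1 with Cell Ranger v3.1.0 and analysed in Seurat v3.1.1. The deposited matrix headers name Cell Ranger v5.0.0. Whether the counting used strand is not given in the sources used here. The authors deposited raw UMI counts per gene and barcode, already restricted to barcodes called as nuclei.

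Nuclei with 270 to 3700 genes, under 13000 UMIs and under 10% mitochondrial UMIs were retained, with the UMI limit read as 13000 where the methods print 1300, which would remove most WT nuclei. Doublets were removed per library by Scrublet scores (scanpy 1.11.5), at a share that grows with the library's number of barcodes. The 2000 most variable genes of each library, without KCN, mitochondrial and ribosomal genes, gave 30 principal components, which were joined with Harmony and clustered by the Louvain method (igraph 0.11.9, resolution 1) into 23 clusters. A cluster was named from at least 3 of a class's markers. Sub-clusters of endothelial-, stellate-, mural- and Schwann-like nuclei with 6 or more acinar or ductal markers and at least 20 nuclei were left unnamed. The limit of 6 was chosen after seeing the data. An endothelial-like sub-cluster of 15 nuclei with 10 acinar markers kept its class. Sub-clusters of endocrine and immune clusters that took an acinar or ductal name, or no name, were left unnamed as well. Unnamed clusters held 138 WT and 643 PIGinH11 nuclei, of which 38 and 205 came from endocrine clusters. Endothelial clusters gave 31 WT and 150 PIGinH11 unnamed nuclei, stellate clusters 33 and 69, and mural clusters 10 and 19. Immune clusters gave 23 and 104. Schwann clusters gave 3 and 95, beside 44 and 42 named Schwann-like nuclei. The endocrine, endothelial, stellate, immune and Schwann clusters were thus not trimmed equally in the 2 libraries, and the effect on the ratios was not tested.

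For each class and library the UMI counts of a gene were summed and set against the class's total. The resulting CPM has an exact Poisson interval, a share of nuclei an exact binomial one and a ratio of CPM an exact conditional binomial one (scipy 1.17.1). UMIs share nuclei and are not fully independent, so these intervals are a lower limit of the error. With 1 library in each group no test was run. The ratio and its interval were also run on simulated counts. These were independent Poisson counts, so that run could not show the error from UMIs that share nuclei.

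The members and lists were chosen with earlier results of these data known. Named were members with at least 100 UMIs that were at least 2-fold above the next class in both libraries, and, in each class with at least 20 UMIs, up to 5 members in each direction that differed at least 2-fold with an interval apart from equality. Other members given with values, such as KCNMA1 in acinar-like nuclei, KCNN2, KCNIP1, KCNH8, KCNJ6, KCNJ15 and KCND3 in stellate-like nuclei, were chosen after their values were seen. The prefix KCNA also takes in the beta subunits KCNAB1, KCNAB2 and KCNAB3, which were kept as members. Coordinates come from RefSeq on Sscrofa11.1, where 58 of 59 members matched. Genes whose spans overlap on the genome may share reads. IDs without a symbol that a reference names as KCNMB2 and KCNH1 did not meet the rule and were not used. Sequences are not shown, and values of some members are not reported here, although the counts of members include them.

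Alternatives tried were no removal of doublets, no Harmony, resolution 2, a minimum of 500 genes, the 1300 UMI limit, clustering with all genes, thinning to 500 UMIs, median-of-ratios scaling, subtraction of free RNA, means over nuclei, other UMI minima per class, gamma-like nuclei ranked and at least 3 UMIs in the highest class. The last 2 were added after seeing the data.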

Additional observations from a re-analysis of the deposited data

Results flagged for a closer look

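For some members the ratio between libraries had opposite signs in different classes, with each interval apart from equality; every class has 1 library in each group, so the difference between classes was not tested, and the values are given without weighing. All are log2 ratios of PIGinH11 CPM over WT CPM. KCND2 had 1.45 in acinar-like and -4.14 in stellate-like nuclei. KCNIP4, a KChIP gene, had 1.11 in acinar-like and 1.83 in ductal-like nuclei, and -1.66 in alpha-like and -2.75 in delta-like nuclei. KCNJ3 had 1.68 in ductal-like and -1.61 in beta-like nuclei, and KCNJ8 had 1.22 in acinar-like and -1.31 in mural-like nuclei. Most WT UMIs behind the stellate-like KCND2 value and the delta-like KCNIP4 value lay in 1 nucleus each. The delta-like KCNIP4 ratio ran from -2.95 to 1.20 over the alternatives and the mural-like KCNJ8 ratio from -1.31 to 0.31, so both changed sign.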

How the results depend on the processing

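No paired analysis was possible because each group has 1 library, and no replicate could be left out. The ratios of the named members kept their direction and stayed inside the counting interval of the value given in 290 comparisons with an alternative. They moved outside it without a change of sign in 21 and changed sign in 8. After thinning these counts were 18, 6 and 3, and under the 1300 UMI limit 5, 6 and 1, with fewer ratios available. The changes of sign, as log2 ratios of PIGinH11 over WT, were -1.61 for KCNN3 in acinar-like nuclei with free RNA subtracted, -0.083 for KCNJ13 in endothelial-like, 0.31 for KCNJ8 in mural-like and -0.67 for KCNQ5 in Schwann-like nuclei after thinning, 0.40 and 1.20 for KCNIP4 in delta-like nuclei without removal of doublets and with all genes used in clustering, -1.10 for KCNIP1 in stellate-like nuclei under the 1300 UMI limit, and -0.37 for KCNB2 in Schwann-like nuclei at resolution 2. KCNJ5 in acinar-like nuclei ranged from -3.15 to -2.70, KCNJ3 in beta-like nuclei from -1.71 to -1.02, KCNK5 in ductal-like nuclei from -1.20 to -1.03 and KCNAB1 in mural-like nuclei from 1.39 to 1.77. KCNK9 in acinar-like nuclei had a wider range, from -1.47 to -0.019.

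The number of members past 2-fold depended on the processing. Shares over all genes were not counted under the alternatives, so the counts below have no background. In acinar-like nuclei it was 23, with 16 under median-of-ratios scaling and 13 under the 1300 UMI limit. In ductal-like nuclei it was 20, with 11 under that limit, 13 with a minimum of 50 UMIs and 38 with no minimum. In alpha-like nuclei it was 5, with 2 without removal of doublets, 3 without Harmony, 3 at resolution 2, 2 with at least 500 genes, 3 with all genes used in clustering, 1 after thinning, 3 with median-of-ratios scaling, 1 with a minimum of 50 UMIs and 23 with none. In beta-like nuclei it was 6, with 1 after thinning, 3 with a minimum of 50 UMIs and 25 with none. In delta-like nuclei it was 3, with 0 without removal of doublets and after thinning, 5 as a mean over nuclei, 1 with a minimum of 50 UMIs and 27 with none. In endothelial-like nuclei it was 4, with 2 without Harmony, after thinning and with a minimum of 50 UMIs, and 21 with none. In stellate-like nuclei it was 3, with 0 under the 1300 UMI limit and after thinning, and 29 with no minimum. Thinning and higher minima leave fewer members to compare. The cause of the other moves was not tested.

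The members highest in an endocrine class in both libraries numbered 17 to 26 over the alternatives (24 as given), those highest in ductal-like nuclei 4 to 6, those highest in a non-epithelial class 12 to 20, and those highest in acinar-like nuclei 0 throughout. Under the 1300 UMI limit these counts could not be made, since classes kept too few nuclei. In classes of few nuclei, single nuclei held much of some members' UMIs.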
